A study of Mus musculus with 8 samples.

Results

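Epicardial genes were examined in RNA of the mouse ventricle at E10.5, a stage at which the epicardium, the outer cell layer of the heart, is spreading over the myocardium. The genes are the 10 rows Wt1, Tbx18, Tcf21, Upk3b, Upk1b, Aldh1a2, Msln, Lrrn4, Krt19 and Sema3d, chosen as known markers of the epicardium and of mesothelium, out of 55291 gene symbols in the count table. All 10 passed the filter of at least 8 counts in total and were tested among 26820 genes. RNA was sequenced from 4 Pkn2 cKO libraries (Pkn2 fl/fl with the XMLC2-Cre transgene) and from 4 control libraries of Cre-negative Pkn2 fl/fl littermates. Both groups were thus homozygous for the floxed Pkn2 allele, were on a C57BL/6 background (C57BL/6N in the growth notes), received no treatment and were collected at E10.5. XMLC2-Cre is described as a cardiomyocyte driver, so the epicardium was not its intended target, its activity in epicardial cells was not measured here, and the controls lacked the transgene itself. Each library is 1 biological replicate, and the methods take 1 animal or embryo as the experimental unit unless stated otherwise, with no pooling stated for these libraries.

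The epicardium is a mesothelium, a sheet of flat epithelial cells that faces the pericardial cavity. It forms when cells of the proepicardium, a cluster near the venous pole beside the septum transversum and the liver bud, attach to the myocardium and spread over it. Epicardial cells later give rise to fibroblasts and vascular mural cells through epithelial-to-mesenchymal transition (EMT), and the layer sends growth signals, retinoic acid among its regulators, to the myocardium below.

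At the threshold used, no epicardial gene was called between cKO and control ventricles by edgeR, while DESeq2, the tool of the study's methods, called 2 of the 10. By edgeR's quasi-likelihood test, 0 of 10 genes were called at an adjusted p of at most 0.05, where 0.858% of all genes tested were called, and 2 of 10 (Aldh1a2 and Tbx18) had an unadjusted p under 0.05, where 12.8% of all genes did. The 2 called by DESeq2 were again Aldh1a2 and Tbx18, and it called 867 of all 26820 genes. By limma-voom 0 of the 10 were called, and 168 of all genes. The fitted value was lower in cKO for 7 of 10 genes, against 50.2% of all genes tested, and the median log2 fold change was −0.12, against −0.00085 over all genes. In CPM (counts of a gene scaled to library size, with TMM factors), Tbx18 was the one gene of the 10 whose 4 cKO libraries all lay below the 4 control libraries, a pattern that 3.74% of all genes showed, and no gene of the 10 had all 4 cKO libraries above the controls, which 3.14% of all genes had. Because the RNA came from whole ventricular tissue, fewer epicardial cells and less RNA per epicardial cell cannot be told apart.

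Libraries held 47559845 to 56660938 counts. Pkn2 was at 77.6 to 84.3 CPM in the cKO and at 133 to 153 CPM in the control libraries, a difference of −0.83 on the log2 scale (SE 0.060, adjusted p = 7.67e-06 from edgeR), so that each library matched its label. Markers of the tissue were as labelled: the 12 cardiomyocyte genes summed to 40371 to 44016 CPM in cKO and 40766 to 45218 CPM in control libraries, and none of them was called by edgeR (4 had an unadjusted p under 0.05). The most abundant of them by counts were Actc1 and Myh7, with log2 fold changes of −0.05 and −0.021, and Nkx2-5 was the one without overlap, at 74.5 to 108 CPM in cKO and 116 to 127 CPM in control libraries (−0.32, adjusted p = 0.109 from edgeR).

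**Figure D1:**
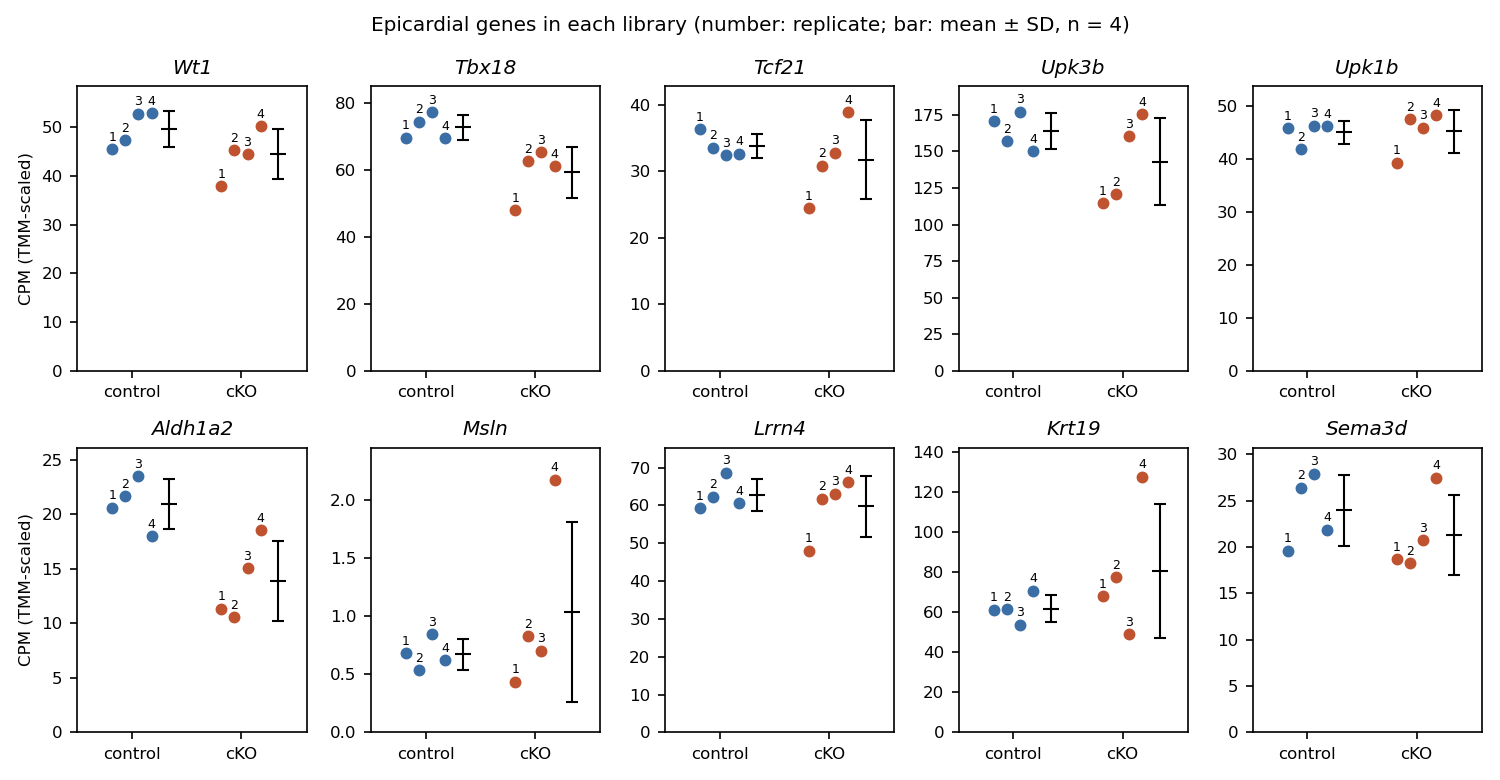
Level of each epicardial gene in each library, in CPM scaled by TMM factors, with control libraries on the left and cKO libraries on the right of each panel. Points are libraries with their replicate number, and the bar is the mean ± SD of 4. Tbx18 is the panel without overlap between the groups, and cKO replicate 4 is the highest cKO library in 9 of 10 panels.

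The 3 transcription factors are Wt1, a zinc finger protein needed for the epicardium to form and to give off mesenchyme, Tbx18, a T-box protein of the proepicardium and epicardium, and Tcf21, a basic helix-loop-helix protein needed for the cardiac fibroblast lineage. Wt1 (ENSMUSG00000016458, chromosome 2 of GRCm38, 105126529 to 105173616, plus strand) was at 37.9, 45.3, 44.5 and 50.2 CPM in cKO replicates 1 to 4 and at 45.5, 47.2, 52.7 and 52.8 CPM in control replicates 1 to 4. Replicates 1, 2 and 3 of the cKO lay below every control library, while cKO replicate 4 lay among the controls. Its log2 fold change was −0.16 (95% interval −0.33 to 0.013, adjusted p = 0.439 from edgeR).

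Tbx18 (ENSMUSG00000032419, chromosome 9, 87702800 to 87731260, minus strand) was at 48.1, 62.6, 65.4 and 61.2 CPM in the cKO libraries and at 69.7, 74.5, 77.4 and 69.6 CPM in the controls. The groups did not overlap, and cKO replicate 1 was the lowest of the 8 libraries. The cKO mean was 59.3 ± 7.67 CPM against 72.8 ± 3.80 CPM (SD, n = 4 each), which is 81.5% of the control level (two-sided exact permutation test of log2 CPM, p = 0.0286, the smallest that 4 against 4 allow). Across all genes the difference did not pass the threshold, at −0.30 on the log2 scale (SE 0.081, adjusted p = 0.104 from edgeR). It passed with DESeq2 (adjusted p = 0.0309), with no filter on low counts (adjusted p = 0.0153) and without cKO replicate 3 (adjusted p = 0.0422 from edgeR). Tcf21 (ENSMUSG00000045680, chromosome 10, 22817281 to 22820174, minus strand) was at 24.5, 30.8, 32.8 and 38.9 CPM in cKO and at 36.3, 33.5, 32.4 and 32.6 CPM in control libraries. The cKO libraries spread on both sides of the controls, from the lowest to the highest of the 8. Its log2 fold change was −0.09 (95% interval −0.31 to 0.13), and without cKO replicate 1 the sign turned, to 0.019.

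Aldh1a2 encodes the retinaldehyde dehydrogenase that makes retinoic acid in the early embryo, and in the heart at this stage it is best known from the epicardium, where Wt1 promotes its expression. The gene (ENSMUSG00000013584, chromosome 9, 71215789 to 71296243, plus strand) was at 11.3, 10.6, 15.1 and 18.5 CPM in cKO replicates 1 to 4 and at 20.6, 21.7, 23.5 and 18.01 CPM in the controls. Again 3 cKO libraries were below every control, while cKO replicate 4 was above control replicate 4. The means were 13.9 ± 3.67 and 20.9 ± 2.30 CPM (SD, n = 4 each), so that cKO ventricles had 66.3% of the control mean. This was the largest fitted decrease among the 10 genes, at −0.59 on the log2 scale (SE 0.14, 95% interval −0.90 to −0.29), and it missed the threshold (adjusted p = 0.0666 from edgeR, and p = 0.0571 by the two-sided exact permutation test).

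The result for Aldh1a2 turned on single libraries and on the tool. It was called without cKO replicate 4 (log2 fold change −0.76, adjusted p = 0.00546) and without cKO replicate 3 (adjusted p = 0.0492), and it was not called when any other library was left out (adjusted p from 0.0990 without control replicate 4 to 0.201 without cKO replicate 1, all from edgeR). It was also called by DESeq2 (adjusted p = 0.00489) and with no filter on low counts (adjusted p = 0.00137). Set against Wt1 in the same library, Aldh1a2 was at 0.299, 0.233, 0.339 and 0.369 CPM per CPM of Wt1 in cKO and at 0.452, 0.458, 0.446 and 0.341 in control libraries, so that control replicate 4 fell within the cKO range. Afp, a gene of fetal liver and yolk sac, was at 15.9 CPM in control replicate 1 and at most 2.24 CPM in the other libraries. Without that library the log2 fold change of Aldh1a2 was −0.60 (adjusted p = 0.168 from edgeR). Of the 12 hepatic genes tested, Apob and Ttr alone were lower in cKO without overlap with any control. For these 2 genes the groups stay apart when control replicate 1 is left out. Over the whole hepatic list they do not, as the summed levels of the other controls lay within the cKO range of 14.8 to 22.2 CPM. Any part of such tissue in the Aldh1a2 values was not tested.

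The surface proteins of the layer are Upk3b and Upk1b, members of the uroplakin group first described in bladder lining and also made by mesothelium, Lrrn4, a leucine-rich repeat membrane protein, and Msln, the mesothelial glycoprotein mesothelin. Promoters are shown for Upk3b and Lrrn4 because both hold the TEAD core GGAATG, for Tcf21 because it holds the GATA word AGATAA, and for Aldh1a2 because its level was furthest below the controls. The sequences are the 250 bases before the RefSeq start on GRCm38.p6, read 5′ to 3′ on the strand of the gene, and capitals mark the motif on either strand.
Upk3b promoter (chr5:136038246-136038495, plus strand): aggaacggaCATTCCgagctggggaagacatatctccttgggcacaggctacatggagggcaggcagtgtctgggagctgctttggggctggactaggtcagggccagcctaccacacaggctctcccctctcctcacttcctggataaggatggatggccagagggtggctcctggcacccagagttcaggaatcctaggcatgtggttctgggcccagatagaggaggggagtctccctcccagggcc
Lrrn4 promoter (chr2:132880863-132881112, minus strand): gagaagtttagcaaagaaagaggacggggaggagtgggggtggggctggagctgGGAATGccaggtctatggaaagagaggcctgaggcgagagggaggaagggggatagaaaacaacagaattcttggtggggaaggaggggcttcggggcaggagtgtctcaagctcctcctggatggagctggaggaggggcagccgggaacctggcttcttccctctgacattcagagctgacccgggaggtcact
Tcf21 promoter (chr10:22820144-22820393, minus strand): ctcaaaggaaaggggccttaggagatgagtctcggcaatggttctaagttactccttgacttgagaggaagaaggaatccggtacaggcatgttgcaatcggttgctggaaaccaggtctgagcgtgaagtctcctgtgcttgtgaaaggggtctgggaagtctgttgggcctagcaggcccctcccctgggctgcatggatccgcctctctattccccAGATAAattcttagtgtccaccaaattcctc
Aldh1a2 promoter (chr9:71215539-71215788, plus strand): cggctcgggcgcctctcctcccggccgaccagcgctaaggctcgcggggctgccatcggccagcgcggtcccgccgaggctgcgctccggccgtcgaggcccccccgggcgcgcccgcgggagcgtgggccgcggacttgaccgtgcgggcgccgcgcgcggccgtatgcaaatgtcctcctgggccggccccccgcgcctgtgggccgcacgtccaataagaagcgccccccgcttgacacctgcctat
RefSeq promoters were matched for 6 of the 10 genes, the other two being Sema3d and Tbx18. GGAATG or its reverse complement was in 2 of the 6 promoters and in 12.6% of all 32851 promoters of the same length, 241 bases before the start in Upk3b and 196 bases before it in Lrrn4. AGATAA was in 1 of 6 (Tcf21, 31 bases before the start) and in 9.99% of all promoters. None of the 6 held the WT1 and EGR words GCGTGGGCG or GCGGGGGCG (3.06% of all promoters), the T-box word AGGTGTGA (1.12%) or the E-box CAGCTG (13.0%). A match describes the letters of this window and is no evidence of binding.

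Upk3b (ENSMUSG00000042985, chromosome 5, 136038496 to 136046487, plus strand) was at 115, 121, 161 and 175 CPM in cKO and at 171, 157, 177 and 150 CPM in control libraries. Replicates 1 and 2 of the cKO were below all controls, and replicates 3 and 4 were among them. Its log2 fold change was −0.20 (95% interval −0.43 to 0.036, adjusted p = 0.498 from edgeR). Upk1b (ENSMUSG00000049436, chromosome 16, 38773184 to 38800328, minus strand) had the smallest SE of the 10 genes (0.070 on the log2 scale), at 39.4, 47.5, 45.9 and 48.3 CPM against 45.8, 41.9, 46.4 and 46.2 CPM. Its fitted log2 fold change was 0.0067 with a 95% interval of −0.14 to 0.15. That sign turned without cKO replicate 2, cKO replicate 4 or control replicate 2 (−0.017, −0.022 and −0.020).

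Lrrn4 (ENSMUSG00000043110, chromosome 2, 132868305 to 132880891, minus strand) was at 48.1, 61.8, 63.1 and 66.1 CPM in cKO and at 59.2, 62.4, 68.7 and 60.7 CPM in control libraries. Apart from cKO replicate 1, the values of both groups intermingled. The log2 fold change was −0.07 (95% interval −0.25 to 0.11), and 0.021 without cKO replicate 1. Msln (ENSMUSG00000063011, chromosome 17, 25748613 to 25754378, minus strand) was at 0.436, 0.831, 0.705 and 2.18 CPM in cKO and at 0.684, 0.539, 0.848 and 0.621 CPM in control libraries. With 360 counts over the 8 libraries, it is the gene of the 10 with the least precise level. The fitted log2 fold change of 0.63 (95% interval −0.20 to 1.46) rested on cKO replicate 4, and without that library it was −0.036.

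Krt19 encodes a keratin of simple epithelia and mesothelia. The gene (ENSMUSG00000020911, chromosome 11, 100140810 to 100146120, minus strand) was at 68.1, 77.7, 49.2 and 128 CPM in cKO and at 61.4, 61.6, 53.8 and 70.7 CPM in control libraries. Replicates 2 and 4 of the cKO lay above every control, and replicate 3 below every control. The log2 fold change was 0.38 (95% interval −0.024 to 0.79, adjusted p = 0.429 from edgeR), and 0.075 without cKO replicate 4. Its partner keratin in simple epithelia, Krt8, was at 38.1, 68.0, 45.2 and 75.7 CPM in cKO against 43.3 to 48.8 CPM in controls (log2 fold change 0.31). Thus cKO replicates 2 and 4 were also the highest 2 libraries for Krt8. The keratin genes Krt18 and Krt7 were fitted lower in cKO. Krt18 was at 24.0, 40.5, 26.7 and 42.9 CPM in cKO against 35.0 to 38.5 CPM in controls (−0.16). Krt7 was at 11.8, 11.7, 20.7 and 24.6 CPM against 19.6 to 24.6 CPM (−0.37). None of these keratins was called by edgeR. The epithelial genes Epcam and Cdh1 were at 0.357 and 0.0714 CPM in cKO replicate 4, and both were highest in control replicate 3, at 1.27 and 0.671 CPM. Sox2 and Cldn4 of the same list were highest in cKO replicates 3 and 2, at 0.44 and 0.33 CPM. Of the 10 genes tested in that list, 3 were fitted higher and 7 lower in cKO, all with a mean under 1 CPM. Any part of other epithelium in the Krt19 values was not tested.

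Sema3d encodes a secreted class 3 semaphorin, a guidance ligand of the proepicardium and epicardium. The gene (ENSMUSG00000040254, chromosome 5, 12383385 to 12588948, plus strand) was at 18.7, 18.3, 20.7 and 27.5 CPM in cKO and at 19.6, 26.4, 27.9 and 21.9 CPM in control libraries. Replicates 1 and 2 of the cKO were below all controls, and the groups overlapped otherwise. Its log2 fold change was −0.17 (95% interval −0.44 to 0.10, adjusted p = 0.667 from edgeR). Over the 10 genes, the 95% interval lay within a 1.5-fold change in either direction for 7 (Wt1, Tbx18, Tcf21, Upk3b, Upk1b, Lrrn4 and Sema3d) and reached past it for Aldh1a2, Msln and Krt19.

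**Figure D2:**
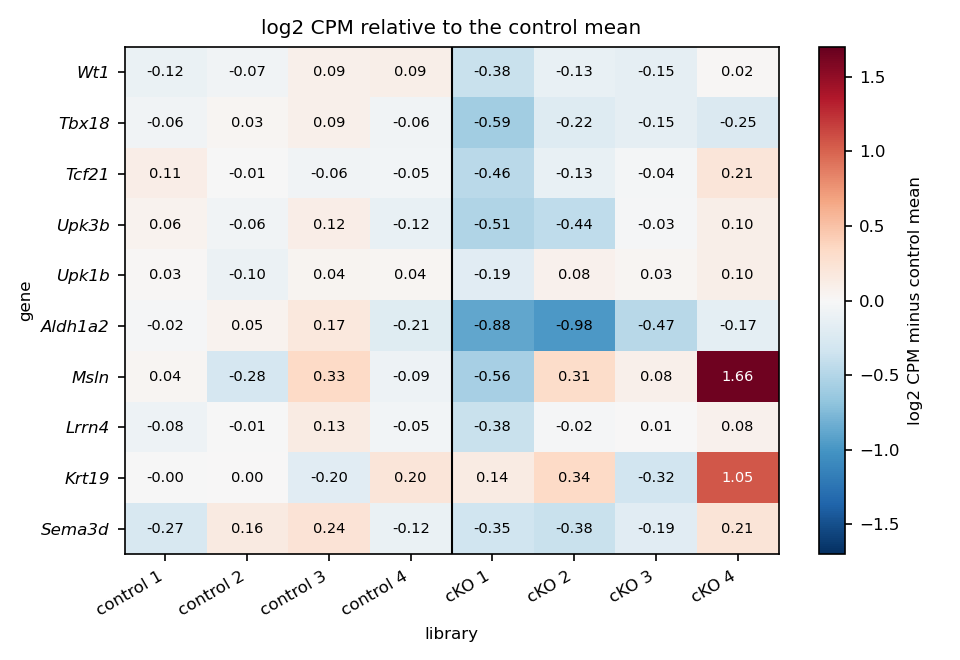
Difference of each library's log2 CPM from the control mean for the 10 epicardial genes (rows) in the 8 libraries (columns), with the value written in each cell and in colour. The column of cKO replicate 1 is negative for 9 of 10 genes and that of cKO replicate 4 for 2 of 10, and the Aldh1a2 and Tbx18 rows are negative in all 4 cKO libraries.

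The cKO libraries spread over a wider range than the controls in the epicardial genes. Over the count table, the chi-square per degree of freedom between libraries of a group was 14.5 to 39.1 in cKO and 12.0 to 21.3 in control. The highest values were those of cKO replicate 4 with cKO replicates 1, 2 and 3 (25.5, 34.1 and 39.1). Pairs among cKO replicates 1 to 3 were at 14.5, 17.4 and 22.3, near the control range. The median of the 10 genes, as log2 CPM relative to the control mean, was −0.42, −0.13, −0.10 and 0.10 in cKO replicates 1 to 4 and −0.011, −0.0067, 0.10 and −0.055 in control replicates 1 to 4. Of the 10 genes, 7 were at their lowest of all 8 libraries in cKO replicate 1, and 9 were at their highest cKO level in replicate 4. Among the controls, 7 of 10 were highest in replicate 3. With the mean of each group removed, 8 of the 9 genes with a mean of at least 1 CPM followed the mean of the other 8 with a Pearson r from 0.58 (Tbx18) to 0.85 (Tcf21) over the 8 libraries, and Krt19 with an r of 0.34. These points share libraries and depth and are given as a description.

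Per length, as TPM (scaled for transcript length and library depth) from the authors' table, the control levels fell in the order Upk3b (81.5 ± 6.29), Krt19 (69.0 ± 7.28), Tcf21 (45.3 ± 2.69), Upk1b (41.7 ± 1.11), Wt1 (31.7 ± 2.40), Tbx18 (30.9 ± 2.16), Lrrn4 (29.7 ± 2.02), Aldh1a2 (16.1 ± 1.96), Sema3d (6.76 ± 1.22) and Msln (0.504 ± 0.090 TPM, SD, n = 4 each). Upk3b and Krt19 overlapped in their ranges over the 4 control libraries, as did Wt1 with Tbx18 and Tbx18 with Lrrn4, and the other neighbours in the order did not overlap. In the cKO libraries Krt19 was first, at 92.5 ± 38.9 TPM, and Upk3b second, at 72.5 ± 14.9 TPM, with an SD of Krt19 that exceeded the difference between them.

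Other genes of the epicardium gave a similar picture. Of 17 further epicardial and mesothelial genes, 0 were called by edgeR and 3 had an unadjusted p under 0.05 (Muc16, Ezr and C3). Beside this list and each list below, 0.858% of all genes tested were called by edgeR. An unadjusted p under 0.05 was seen for 12.8% of all genes. DESeq2 called Muc16 and Ezr of this list, and 867 of all 26820 genes. The fitted value was lower in cKO for 12 of 17, with a median log2 fold change of −0.16. Muc16, which encodes a mesothelial mucin that binds mesothelin, was at 2.36, 1.87, 2.24 and 3.77 CPM in cKO and at 4.23, 4.98, 3.85 and 3.65 CPM in control libraries, a log2 fold change of −0.70 (adjusted p = 0.118 from edgeR). Ezr, which encodes the membrane linker ezrin, was at 167 to 193 CPM in cKO and 200 to 215 CPM in control libraries, without overlap, a log2 fold change of −0.23 (adjusted p = 0.0787). C3, a complement gene, had the largest fitted decrease of the list (−2.15, adjusted p = 0.269), which rested on control replicate 3 at 10.8 CPM, where the other controls were at 0.480 to 0.841 CPM.

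**Figure D3:**
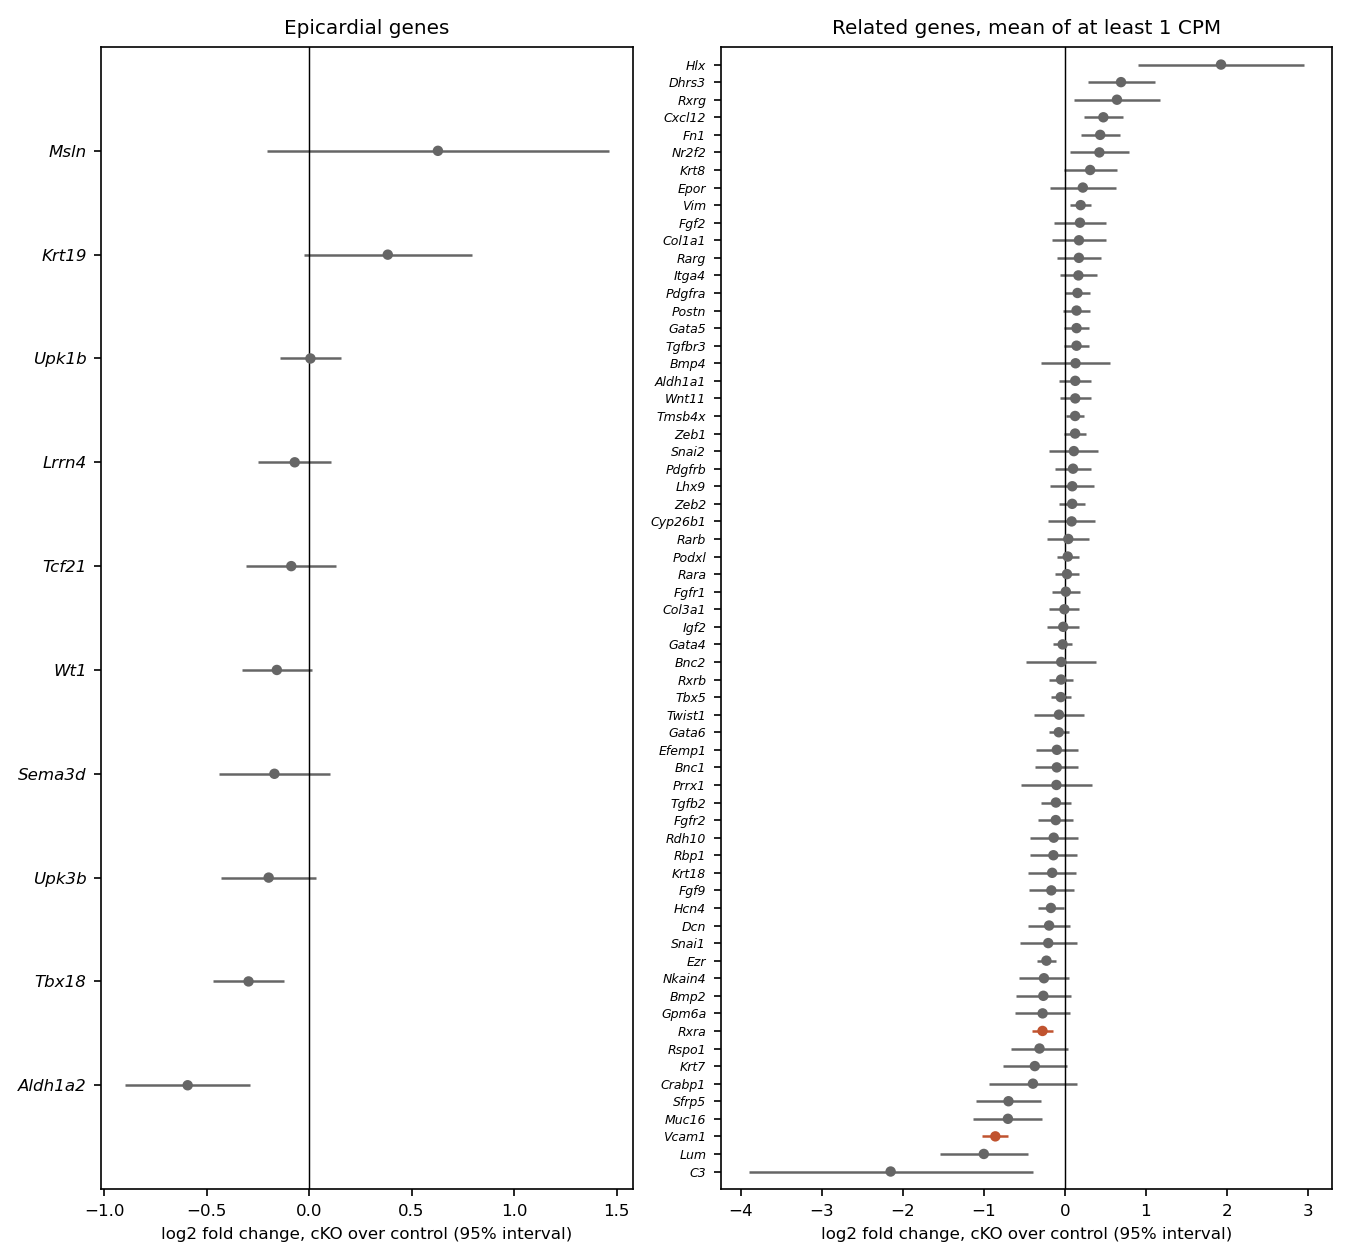
Log2 fold change of cKO over control with its 95% interval for the 10 epicardial genes (left) and for related genes with a mean of at least 1 CPM (right), from edgeR, with the 2 horizontal scales differing. Orange marks an adjusted p of at most 0.05 over all genes: 0 genes on the left, and Vcam1 and Rxra on the right.

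Among 13 genes through which epicardium and myocardium signal or attach to each other, 1 was called, and it was lower in cKO. Vcam1 encodes the adhesion molecule that myocardial cells present to integrin alpha 4 beta 1 on the epicardium, a contact known to be needed for the epicardium to stay attached. The gene (ENSMUSG00000027962, chromosome 3, 116109949 to 116129688, minus strand) was at 50.9, 54.1, 52.8 and 52.4 CPM in cKO replicates 1 to 4 and at 84.9, 91.9, 90.8 and 113 CPM in control replicates 1 to 4. The cKO libraries lay within a narrow band, far below every control. Vcam1 fell to 55.2% of the control level, a difference of −0.86 on the log2 scale (SE 0.076, 95% interval −1.02 to −0.70, adjusted p = 7.5e-05 from edgeR), with 4 of 4 cKO libraries below all controls (two-sided exact permutation test, p = 0.0286). When single libraries were left out, the value stayed between −0.90 and −0.76 and the call held in the 8 fits. It was lost only with limma on log2(TPM + 1) without a filter on TPM (adjusted p = 0.0552). Vcam1 lies 26.7 Mb from Pkn2 on the same chromosome, and both groups carried the floxed Pkn2 allele. Any effect of this position on the Vcam1 values was not tested.

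Itga4, the gene of the integrin subunit that binds this molecule, was named here after its values were seen. It was at 87.0, 130, 107 and 110 CPM in cKO and at 77.5, 101, 108 and 99.04 CPM in control libraries, with overlapping groups and a log2 fold change of 0.17 (95% interval −0.06 to 0.40, adjusted p = 0.581 from edgeR). Per CPM of Itga4, Vcam1 was at 0.417 to 0.585 in cKO and 0.840 to 1.14 in control libraries. The remaining 12 genes of this list, ligands and receptors such as Igf2, Fgf9, Bmp2 and Cxcl12, were not called by edgeR, and DESeq2 called Cxcl12 among them.

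**Figure D4:**
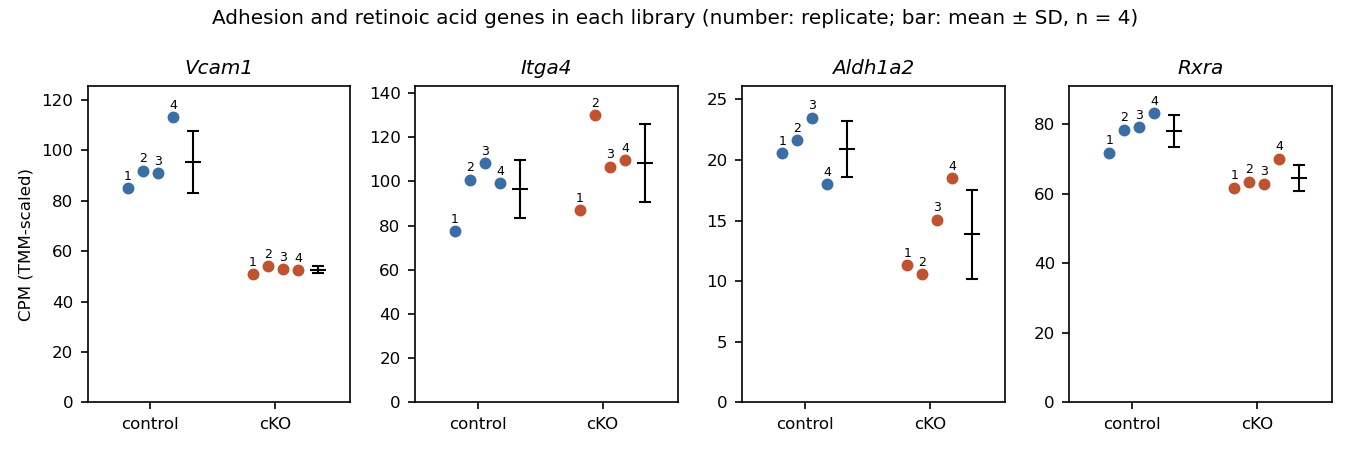
Levels of Vcam1, Itga4, Aldh1a2 and Rxra in each library, in CPM scaled by TMM factors, with points for libraries, replicate numbers and the mean ± SD of 4 per group. The cKO libraries lie at 50.9 to 54.1 CPM for Vcam1, below the controls, and below the controls for Rxra as well, while the groups overlap for Itga4 and Aldh1a2.

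Of 17 genes that make, carry, break down or sense retinoic acid, Rxra alone was called by edgeR. Rxra encodes a retinoid X receptor, the nuclear partner of the retinoic acid receptors. It was at 61.8, 63.6, 62.9 and 70.2 CPM in cKO and at 71.9, 78.5, 79.1 and 83.2 CPM in control libraries, without overlap. It fell to 82.7% of the control level (log2 fold change −0.27, SE 0.061, adjusted p = 0.0474 from edgeR). The call was lost in 11 of 18 other fits, with the direction kept. These were edgeR without cKO replicate 1 or 2 or any 1 control (adjusted p from 0.0600 to 0.163) or with filterByExpr (adjusted p = 0.0547). The others were limma-voom (adjusted p = 0.0691) and limma on log2 TPM (adjusted p from 0.168 to 0.287). Dhrs3, which encodes a retinaldehyde reductase that limits retinoic acid, was at 2.84, 2.58, 2.53 and 3.05 CPM in cKO and at 2.24, 1.85, 1.41 and 1.30 CPM in control libraries. These groups did not overlap either, with the cKO libraries higher. Its log2 fold change was 0.69 (SE 0.20, adjusted p = 0.111 from edgeR and 0.0205 from DESeq2, which called it). The list had 8 genes higher and 9 lower, and a median log2 fold change of −0.05.

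Genes of the steps before and after the epicardial layer were not called by edgeR. In the list of 17 genes for EMT and epicardium-derived mesenchyme, 10 were higher and 7 lower, and 3 had an unadjusted p under 0.05 (Vim, Lum and Fn1). Lum, which encodes the matrix proteoglycan lumican, was at 0.803 to 1.7002 CPM in cKO and 1.77 to 3.36 CPM in control libraries (log2 fold change −0.999, adjusted p = 0.0838 from edgeR), and Fn1, which encodes fibronectin, was at 2486 to 3783 and 1959 to 2688 CPM (0.44, adjusted p = 0.0838). In the list of 13 genes of the proepicardium, septum transversum and inflow region, 6 were higher and 7 lower, and 4 had an unadjusted p under 0.05. Hlx, a homeobox gene of visceral mesenchyme, was at 3.41, 1.31, 1.16 and 6.50 CPM in cKO and 0.591, 1.43, 0.389 and 0.881 CPM in control libraries (log2 fold change 1.93, adjusted p = 0.0778 from edgeR). Sfrp5, a secreted Wnt antagonist of venous pole cells, was at 3.53 to 8.27 and 7.77 to 10.5 CPM (−0.69, adjusted p = 0.104). Foxf1, a forkhead gene of visceral mesoderm, was higher in cKO without overlap, at 0.125 to 0.208 against 0.0401 to 0.124 CPM, with 55 counts in all (adjusted p = 0.607 from edgeR). DESeq2 called Lum and Vim of the first list and Sfrp5 of the second.

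Markers of other cell types that could lie in the tissue were set beside these values. The 12 endothelial and endocardial genes were all fitted higher in cKO, and 6 were called by edgeR, where 0.858% of all genes were. Of the 12, 11 had an unadjusted p under 0.05 (12.8% of all genes). In 7, all 4 cKO libraries lay above the controls (3.14% of all genes). The 12 genes summed to 1705 to 2217 CPM in cKO and 1328 to 1594 CPM in control libraries. The most abundant by counts were Cdh5, which rose (log2 fold change 0.53, adjusted p = 0.0303 from edgeR), and Eng (0.37, adjusted p = 0.0981). The 11 macrophage genes were all fitted higher in cKO, and 2 were called by edgeR. Of the 11, 10 had an unadjusted p under 0.05, and 4 had all 4 cKO libraries above the controls. The 11 genes summed to 12.4 to 41.0 CPM against 6.75 to 13.6 CPM, with Csf1r and Cd68 the most abundant (log2 fold changes 1.42 and 0.46, not called). The 8 erythroid genes summed to 1378 to 4854 and 1516 to 4694 CPM, with 0 called by edgeR, 0 at an unadjusted p under 0.05, and Hbb-y and Hba-x the most abundant. Of 13 hepatic genes, 12 were tested and 11 of these had a lower fitted value in cKO (median −1.73 on the log2 scale), with 7 at an unadjusted p under 0.05 and 0 called by edgeR, while DESeq2 called Apob and Ttr. Apob was at 0.0794 to 0.750 CPM in cKO and 1.02 to 2.90 CPM in control libraries and Ttr at 0.270 to 0.589 and 0.664 to 3.01 CPM, both without overlap (adjusted p = 0.0867 and 0.0820 from edgeR). Fga, Fgb and Fgg were at 0 in the 4 cKO libraries and in 2 or 3 of the controls, and Alb had 2 counts in all. The hepatic sum was 14.8 to 22.2 CPM in cKO and 16.4 to 49.4 CPM in control libraries, the highest in control replicate 1, and in the other libraries most of it was Trf, the one gene fitted higher in cKO (12.2 to 18.1 against 11.6 to 14.8 CPM). Genes of the urogenital ridge, another tissue where Wt1 is expressed, summed to 3.69 to 4.80 CPM in cKO and 3.03 to 4.06 CPM in control libraries. Most of this was Gata3 (1304 counts in all), followed by Pax8, and Emx2 had 2 counts in all. Of the 7 genes tested there, 6 had a mean under 1 CPM. The sum does not measure Wt1-expressing cells as such. Foregut and other epithelial genes summed to 1.37 to 1.87 CPM in cKO and 1.34 to 4.33 CPM in control libraries, with Cldn7 and Epcam the most abundant, Nkx2-1 at 0 and Shh and Foxa1 at 2 and 4 counts in all. The part of these cell types in the values of the epicardial genes was not tested.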

How the data were processed

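Poly(A) RNA of E10.5 ventricular tissue was sequenced as paired-end reads. Unnormalized read counts by gene symbol and a table of TPM values were deposited by the authors, each with 1 column for every library, and all columns were used. The methods name the nf-core/rnaseq workflow, and the submitters' processing notes list Trim Galore 0.6.7, HISAT2 2.2.1, StringTie 2.2.1 and featureCounts. The strand setting is not given in the sources used here, so that reads of antisense partners cannot be told apart. The notes name GRCm39, while of 37850 genes compared, the position in the TPM table was no more than 1000 bases from the GRCm38 start for 85.8% and from the GRCm39 start for 3.26%. Coordinates are given as GRCm38.

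Genes reaching 8 counts in total were tested on the deposited counts with edgeR 4.0.16 in R 4.3.3 (quasi-likelihood F test, TMM, design with condition), adjusted by Benjamini-Hochberg over all 26820 genes. Log2 CPM used a prior count of 2. Standard errors were derived from the fold change and F, and 95% intervals from them. On simulated data with 200 changed genes of at least 1 CPM among 26820, this test found 67% of the 1.5-fold and 90% of the 2-fold changes, and 9.77% of its calls were false. Exact permutation tests were two-sided. The study itself used DESeq2 with a design of condition, and here DESeq2 1.42.0 was run as an alternative. The other alternatives were limma-voom (limma 3.58.1), DESeq2 size factors, filterByExpr, no filter, a replicate block, limma on log2 TPM (pseudocounts 1 and 0.1, and a mean of at least 1 TPM), hepatic and erythroid genes left out, and each library left out.

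The epicardial genes and all lists were chosen with earlier results of these data known, so counts over a list are descriptions. By the naming rule, the text names the 10 genes, the called genes of each related list or else its 2 genes of at least 1 CPM with the largest fold change, the 2 genes of highest mean CPM in each list of another cell type, and the 10 genes most like the epicardial ones. Other genes were named after their values were seen, among them Ezr, Vim, Cxcl12, Dhrs3, Foxf1, Nkx2-5, Apob, Ttr, Itga4, Krt8, Krt18, Krt7, Cdh1, Sox2 and Cldn4. Libraries were not treated as pairs by number, because the labels do not give litters. Same-numbered cKO and control libraries, relative to their group means, correlated at −0.19, −0.03, 0.006 and −0.14 over 14302 genes. These values cannot show whether libraries shared a litter. No pair of libraries in a group was as close as copies of 1 library would be. The chi-square per degree of freedom was 14.5 to 39.1 in cKO and 12.0 to 21.3 in control, where counting error alone gives about 1.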

Additional observations from a re-analysis of the deposited data

Results flagged for a closer look

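Upk1b in control replicate 2 was at 41.9 CPM, while the other controls were at 45.8 to 46.4 CPM, and the gap was 0.883 of the range of the group. This was the 1 library set apart among 26 groups of 4 libraries examined (the 10 epicardial genes, Vcam1, Rxra and Itga4 in both genotypes), and chance sets apart about 5% of such groups.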

How the results depend on the processing

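Of the 10 epicardial genes, 2 (Aldh1a2 and Tbx18) were called with DESeq2, with no filter on low counts and without cKO replicate 3, 1 (Aldh1a2) without cKO replicate 4, and 0 under the other settings apart from the replicate block, a range of 0 to 2 over single libraries left out. The median of their log2 fold changes stayed negative, from −0.21 to −0.034 with single libraries left out. The number of related genes called, 2 in the report (Vcam1 and Rxra), was 9 with DESeq2, 10 with no filter, 1 with limma-voom, filterByExpr, limma on log2(TPM + 0.1) and limma on genes of at least 1 TPM (Vcam1 each time), 0 with limma on log2(TPM + 1), and 1 to 7 with single libraries left out. Signs turned for Tcf21 (0.019) and Lrrn4 (0.021) without cKO replicate 1, for Upk1b without cKO replicate 2 (−0.017), cKO replicate 4 (−0.022) or control replicate 2 (−0.020), and for Msln without cKO replicate 4 (−0.036), and the other ends of these ranges were −0.20, −0.12, 0.068 and 0.88 on the log2 scale for Tcf21, Lrrn4, Upk1b and Msln. Msln could not be fitted with a mean of at least 1 TPM. Over all genes, 230 were called, and 98 with a fold of at least 1.5. These numbers were 867 and 230 with DESeq2, 878 and 366 with no filter, 2 and 1 with limma on log2(TPM + 1), 5 and 4 with a pseudocount of 0.1, 35 and 14 on genes of at least 1 TPM, and 68 to 762 and 32 to 302 with single libraries left out, and the second was 62 with limma-voom. The split of higher and lower calls was 138 and 92 in the report and 78 and 90 with limma-voom. The paired analysis, with the replicate number as a block, called 380 genes (168 with the fold) and 7 related genes. It also called Aldh1a2 and Tbx18 (2 of 10, adjusted p = 0.0255 and 0.0405 from edgeR). The labels do not say whether same-numbered libraries share a litter or a batch. Pkn2 kept its call throughout (log2 fold change −0.86 to −0.80). The causes of these differences were not tested. Msln had 360 counts over the 8 libraries.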

Other observations

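The genes whose levels followed the epicardial genes most closely were looked up over 14184 genes with a mean of at least 1 CPM that were on no list. With group means removed, the 10 highest Pearson r values over the 8 libraries with the mean log2 CPM of the 9 epicardial genes of at least 1 CPM were 0.964 to 0.977. They belonged to Efemp2, C230013L11Rik, Hexim2, Cxxc5, Irf2bpl, Mfap1a, Igfbp5, Fam43a, Gpx3 and Pdgfa. Efemp2 encodes an elastic fibre protein, Igfbp5 an insulin-like growth factor binding protein and Pdgfa a platelet-derived growth factor. None of the 10 was called between cKO and control by edgeR (adjusted p from 0.278 for Irf2bpl to 0.999). The libraries share depth and composition, and so many genes were ranked over so few libraries that the order is a description only.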
